A study of Mus musculus with 9 samples.

Results

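The genes described here are 32 genes of sterol synthesis, sterol uptake and the control of both, out of 25124 genes listed for mouse ear skin. They were taken by gene symbol from a list, and all 32 were found in the table. Of these, 19 encode enzymes of the pathway from acetyl-CoA to cholesterol, counting Ggps1, which acts on a side branch. Another 5 encode the SREBP transcription factors and the proteins that hold or escort them. The other 8 act in transfer, export or storage of sterols, in the control of uptake or export, or in making an oxysterol. All 32 reached at least 1 TPM in at least 4 libraries, the filter used for testing, which passed 15704 genes.

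Cells make cholesterol from acetyl-CoA by way of mevalonate, squalene and lanosterol, and the isoprenoids on the way also feed protein prenylation. When sterols in the endoplasmic reticulum run low, SCAP carries the SREBP factors to the Golgi, where they are cut and go on to switch on these genes, while INSIG proteins hold them back when sterols are plentiful. The LXR receptors respond to oxysterols and switch on export genes. In skin, keratinocytes and sebaceous glands synthesize sterols, and cholesterol is one of the main lipids of the barrier in the cornified layer.

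The 9 RNA sequencing libraries were made from whole ear skin of C57BL/6 mice. In 4 libraries the mice carried Staphylococcus epidermidis strain LM087, applied to the skin every other day, and also received an anti-CTLA-4 antibody, which blocks an inhibitory receptor of T cells (called anti-CTLA-4 libraries below). In the other 5 the mice carried the same bacterium without the antibody (S. epidermidis libraries). Skin was taken on day 8 after the first application in both groups, so both carry the bacterium, and skin without it was not analysed here. For the age of the mice and the clone, dose and schedule of the antibody, the labels give nothing. The comparison addresses what checkpoint blockade changes in colonized skin. Values are TPM, a measure of transcript abundance scaled by transcript length and to a library total.

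The listed genes summed to between 696393 and 728933 TPM per library, and between 19639 and 20088 genes were above 0. The depth is unknown, because TPM keeps no totals of reads. Entries for ribosomal RNA, Rn45s and Mir6236, made up 34.9% ± 4.26 of the listed TPM in the anti-CTLA-4 libraries and 33.7% ± 2.25 in the S. epidermidis libraries (SD, n = 4 and n = 5). The replicates are not stated to come from separate animals, so p-values measure only a spread between samples that may be technical. Keratinocyte markers were abundant, and 8 basal markers summed to 7196 to 8481 TPM in the anti-CTLA-4 libraries and 6747 to 8068 TPM in the S. epidermidis libraries. Markers of skeletal muscle, of which 15 were listed, summed to 1409.5 to 1970.4 TPM in the anti-CTLA-4 libraries and 1604 to 2499.9 TPM in the S. epidermidis libraries.

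Sterol synthesis transcripts were lower in skin given anti-CTLA-4. Of the 32 genes, 13 fell and 0 rose in limma at a Benjamini-Hochberg adjusted p under 0.05 over all genes tested. Across all tested genes 4.48% were called lower and 7.16% higher. With 1 library left out these shares were 2.16% to 4.53% lower and 4.55% to 7.02% higher, and 9 to 14 of the 32 genes were called lower. At an unadjusted p under 0.05, 23 of the 32 genes were lower and 0 higher. The log2 fold change, taken as anti-CTLA-4 minus S. epidermidis on log2(TPM + 1), was negative for 29 of the 32 (26 with ribosomal RNA entries left out of the total) and had a median of -0.27, against -0.014 over all genes tested. The calls covered 10 of the 19 synthesis enzymes and 3 of the 13 other genes. In 15 of the 32 genes every anti-CTLA-4 library lay below every S. epidermidis library, which held for 6.39% of all tested genes, and in 0 of the 32 did every anti-CTLA-4 library lie above, which held for 8.02%. The 32 genes were chosen with earlier results of these data known, so setting them beside all tested genes is no independent test. In bulk tissue, fewer cells of a type and less RNA per cell cannot be told apart.

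**Figure D1:**
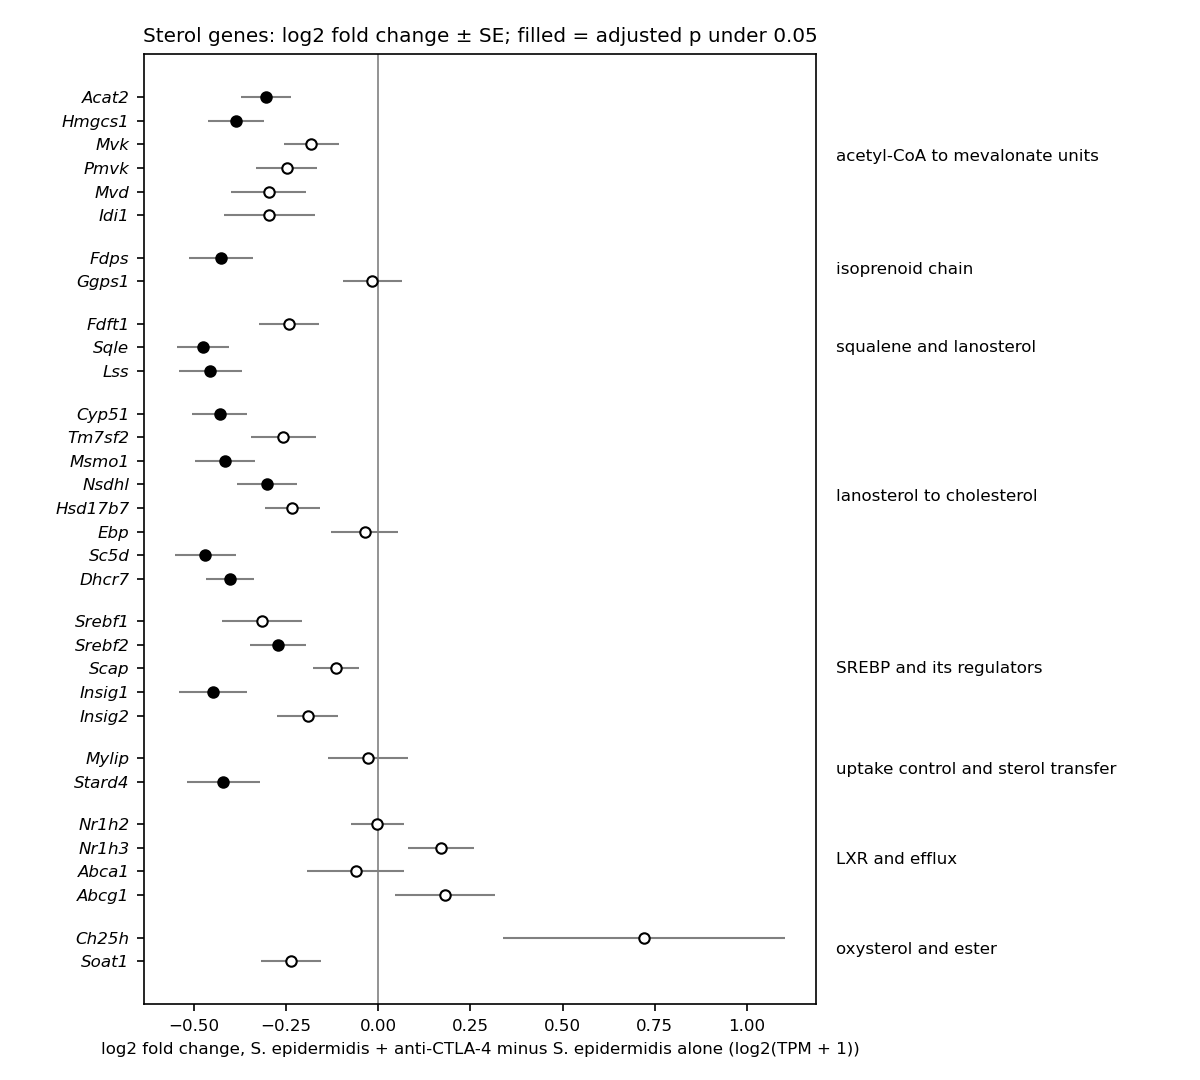
Log2 fold change (anti-CTLA-4 minus S. epidermidis, on log2(TPM + 1)) with its SE for each of the 32 genes, ordered by role from top to bottom. Filled points passed the limma adjusted p of 0.05 and open points did not. All 13 filled points lie left of 0, and the 4 LXR and efflux genes are open and lie between -0.062 and 0.18.

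The summed level of the 19 synthesis enzymes was 456, 492, 553 and 519 TPM in anti-CTLA-4 replicates 1 to 4, against 641, 639, 631, 657 and 666 TPM in S. epidermidis replicates 1 to 5. The groups did not overlap, and the spread was wider with the antibody, at 505 ± 41.1 TPM against 647 ± 14.02 TPM (SD, n = 4 and n = 5). Anti-CTLA-4 replicate 3 had the highest level of its group for 10 of the 19 enzymes and the lowest for 0. Replicates 1 and 2 of that group had the lowest level for 8 enzymes each. The share of ribosomal RNA entries ran in the opposite order among these libraries, at 40.2%, 36.3%, 30.6% and 32.5% in replicates 1 to 4, and its part in the spread between them was not tested. With the ribosomal entries left out of the total, 12 of the 32 genes were called lower.

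**Figure D2:**
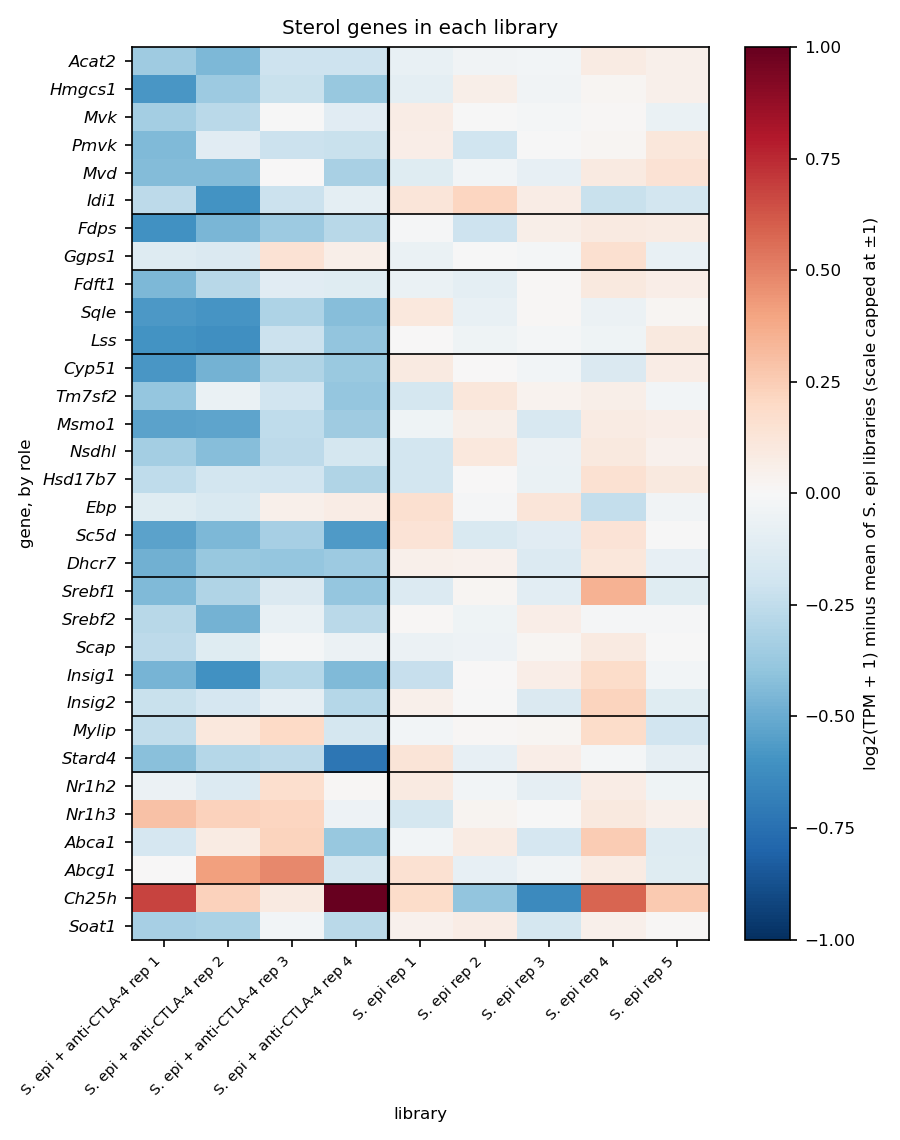
Level of each of the 32 genes (rows, by role) in each of the 9 libraries (columns), as log2(TPM + 1) minus the mean of the S. epidermidis libraries, with the colour scale capped at 1 in either direction. Blue fills most of the rows from Acat2 to Insig2 in the 4 anti-CTLA-4 columns, is palest in replicate 3, and gives way to mixed colours in the rows from Nr1h2 to Ch25h.

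The promoters of some of the genes that fell are shown because these genes are known targets of the SREBP factors. The part of those factors in the fall was not tested. Of the 32 genes, 27 have a promoter in the RefSeq table (build GRCm38.p6), with 36 windows of 250 bases before to 50 after a gene start. Printed are the 150 bases before the start for 6 of the called genes, of which 5 were picked because they hold a marked motif and Dhcr7 because it holds 0 in these bases. Acat2, not printed, also holds 0 there. Capitals mark matches, on either strand, to the SREBP consensus TCANNCCAC, the E-box CACGTG or the CCAAT box, which reads ATTGG on the other strand.
Hmgcs1 promoter, chr13:119690201-119690350, plus strand: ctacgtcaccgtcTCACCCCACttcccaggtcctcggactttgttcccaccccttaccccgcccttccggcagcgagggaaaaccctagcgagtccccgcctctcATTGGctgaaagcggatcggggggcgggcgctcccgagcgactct
Insig1 promoter, chr5:28071262-28071411, plus strand: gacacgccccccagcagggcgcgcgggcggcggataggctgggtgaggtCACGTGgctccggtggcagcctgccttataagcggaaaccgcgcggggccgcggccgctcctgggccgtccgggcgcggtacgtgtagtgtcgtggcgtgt
Sc5d promoter, chr9:42264301-42264450, minus strand: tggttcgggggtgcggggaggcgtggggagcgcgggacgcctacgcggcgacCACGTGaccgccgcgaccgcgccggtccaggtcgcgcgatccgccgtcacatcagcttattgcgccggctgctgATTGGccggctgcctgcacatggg
Cyp51 promoter, chr5:4104698-4104847, minus strand: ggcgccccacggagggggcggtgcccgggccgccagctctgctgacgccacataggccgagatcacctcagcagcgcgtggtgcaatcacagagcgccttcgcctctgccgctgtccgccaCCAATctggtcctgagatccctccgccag
Msmo1 promoter, chr8:64733579-64733728, minus strand: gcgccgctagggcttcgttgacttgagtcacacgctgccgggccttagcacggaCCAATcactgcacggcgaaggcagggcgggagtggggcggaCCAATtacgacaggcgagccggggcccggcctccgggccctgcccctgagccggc
Dhcr7 promoter, chr7:143823017-143823166, plus strand: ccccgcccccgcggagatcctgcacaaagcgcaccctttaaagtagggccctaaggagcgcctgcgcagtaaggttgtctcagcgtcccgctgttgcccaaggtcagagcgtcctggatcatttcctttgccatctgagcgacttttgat

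Hmgcs1 holds the SREBP consensus 137 bases before its start, and Insig1 and Sc5d hold an E-box 101 and 98 bases before theirs. Cyp51 and Msmo1 hold CCAAT boxes. The E-box of Dhcr7 lies 164 bases before its start, outside the printed bases. The 36 windows come from 27 genes, so a gene can count more than once. The 19 windows of synthesis enzymes are therefore not the 19 enzymes. The CCAAT box was in 22 of the 36 windows, or 61.1%, and in 15 of the 19 windows of synthesis enzymes. In the RefSeq table it was in 37.4% of 32851 windows, and in 37.1% of the 14839 windows of tested genes. The E-box was in 7 of the 36 windows (19.4%), against 7.15% of all windows and 9.39% of those of tested genes. The GC box GGGCGG was in 26 of 36 (72.2%), against 35.7% and 58.2%. The SREBP consensus was in 2 of 36 windows, those of Hmgcs1 and Mylip (5.56%), against 4.18% and 3.96%. Only this consensus was searched, so SREBP sites with other letters were not counted. The called genes Fdps, Sqle and Stard4 have no window. The DR4 element, a direct repeat that LXR can bind, was in 0 of the 36 and in 0.0152% of all windows. Each motif was counted on its own on both strands, so matches of different motifs may share letters, and a match is only a description of the sequence.

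The first enzymes build mevalonate from acetyl-CoA and turn it into isoprene units, and 2 of 6 fell. Hmgcs1, which makes HMG-CoA (mm10 chr13:119690351-119708260, plus strand), had the highest level among the 32 genes in each library. It had 108, 126, 138 and 124 TPM in the anti-CTLA-4 libraries, against 151, 169, 158, 164 and 168 TPM in the S. epidermidis libraries. The groups did not overlap, and the mean fell by 23.4%, with a log2 fold change of -0.39 ± 0.076 (SE; limma adjusted p = 0.0127). Acat2, a cytosolic thiolase that joins acetyl-CoA units, had 10.1, 9.41, 11.3 and 11.3 TPM, against 12.5, 12.8, 12.9, 14.02 and 13.7 TPM. It fell by 20.4% without overlap (log2 fold change -0.31, limma adjusted p = 0.0206), and leaving out anti-CTLA-4 replicate 1 or replicate 2 ended the call, at limma adjusted p-values of 0.0574 and 0.0513. Its close relative Acat3 had 10.6 to 18.1 TPM, against 11.6 to 12.7 TPM, with no call by limma (adjusted p = 0.269). The labels do not state how reads shared by such relatives were assigned, so the split between them is uncertain.

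The kinases Mvk and Pmvk, the decarboxylase Mvd and the isomerase Idi1 were not called. Mvk averaged 17.02 ± 1.91 TPM in the anti-CTLA-4 libraries and 19.4 ± 0.719 TPM in the S. epidermidis libraries (SD, n = 4 and n = 5). For Pmvk the means were 28.2 ± 2.68 and 33.7 ± 2.75 TPM, and for Mvd 13.3 ± 2.16 and 16.5 ± 1.39 TPM. The groups overlapped for all 3. Anti-CTLA-4 replicate 3 lay inside the range of the S. epidermidis libraries for Mvk and Mvd, and without that library Mvd was called lower (limma adjusted p = 0.0209). Idi1 had 8.01, 6.15, 8.304 and 9.09 TPM, against 10.8, 11.5, 10.4, 8.3 and 8.52 TPM, with a limma adjusted p of 0.165. Its relative Idi2 stayed under 1 TPM in all 9 libraries.

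The next enzymes join isoprene units into chains. Fdps, which makes farnesyl diphosphate (mm10 chr3:89093588-89101967, minus strand), had 30.0, 33.4, 35.7 and 37.9 TPM in the anti-CTLA-4 libraries, against 45.8, 39.9, 48.1, 49.2 and 48.9 TPM in the S. epidermidis libraries. The lowest S. epidermidis library lay just above the highest anti-CTLA-4 library. Fdps fell by 26.1%, with a log2 fold change of -0.43 ± 0.086 (SE; limma adjusted p = 0.0140). Ggps1 draws on the same substrate to make the geranylgeranyl group used in protein prenylation, a branch away from sterols. It had 15.1, 14.99, 18.5 and 17.4 TPM, against 15.9, 16.6, 16.4, 18.7 and 15.8 TPM, with no call (log2 fold change -0.016 ± 0.08, limma adjusted p = 0.925). Its groups overlapped throughout, and the sign of its fold change turned with the library left out or the scaling. Of 11 tested genes of other isoprenoid branches (ubiquinone, dolichol and prenyl transfer), 0 were called by limma and 0 had an unadjusted p under 0.05, with a median log2 fold change of -0.065. With 4.48% of all tested genes called lower and 7.16% higher, 0 calls among so few genes says little about these branches.

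The enzymes that commit isoprenoids to sterols are Fdft1, Sqle and Lss. Sqle, the squalene epoxidase (mm10 chr15:59315092-59331193, plus strand), had 30.2, 29.9, 36.5 and 33.6 TPM in the anti-CTLA-4 libraries, against 48.9, 43.2, 45.9, 43.6 and 46.1 TPM in the S. epidermidis libraries. Every anti-CTLA-4 library lay well below the lowest S. epidermidis library. Sqle fell by 28.5%, with a log2 fold change of -0.48 ± 0.071 (SE; limma adjusted p = 0.00450), and stayed called in all 9 leave-one-out fits. Lss, which closes epoxidized squalene into lanosterol, had 19.2, 18.95, 25.2 and 22.2 TPM, against 29.6, 28.6, 29.1, 28.6 and 31.7 TPM, again without overlap. It fell by 27.6% (log2 fold change -0.46, limma adjusted p = 0.0109). The gene 4930483K19Rik overlaps Lss on the opposite strand over 11269 bases and averaged 22.7 TPM in the anti-CTLA-4 and 31.4 TPM in the S. epidermidis libraries. The labels do not state whether counting used strand, so reads of the 2 genes cannot be told apart.

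Fdft1, the squalene synthase, had 15.1, 17.1, 19.3 and 19.2 TPM in the anti-CTLA-4 libraries, against 20.01, 19.5, 21.2, 22.5 and 22.03 TPM in the S. epidermidis libraries. Its groups did not overlap, though only narrowly, and it was not called (log2 fold change -0.24, limma adjusted p = 0.0877). Over 773 bases it overlaps Ctsb on the opposite strand, a lysosomal protease gene that averaged 115 TPM in the anti-CTLA-4 and 79.4 TPM in the S. epidermidis libraries, so its level is uncertain too. Fdft1 was called lower with 3 of 4 other scalings of the libraries (limma adjusted p between 0.0230 and 0.0309), and not with ribosomal RNA entries left out (limma adjusted p = 0.0807).

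Of the 8 enzymes that turn lanosterol into cholesterol, 5 fell and 3 were not called. Cyp51, which removes a methyl group from lanosterol (mm10 chr5:4080674-4104697, minus strand), had 31.9, 34.4, 38.9 and 37.1 TPM in the anti-CTLA-4 libraries, against 51.4, 48.2, 47.2, 43.6 and 50.8 TPM in the S. epidermidis libraries. The groups did not overlap, and Cyp51 fell by 26.3% (log2 fold change -0.43 ± 0.074 SE, limma adjusted p = 0.00744). Msmo1, the oxidase that strips further methyl groups, had 39.7, 39.9, 48.5 and 45.2 TPM, against 56.1, 60.3, 51.7, 61.4 and 60.8 TPM. It fell by 25.4% without overlap (log2 fold change -0.42, limma adjusted p = 0.0122). Nsdhl acts with Msmo1 and had the lowest mean of the 19 enzymes, with 4.54, 4.23, 4.84 and 5.21 TPM, against 5.16, 6.56, 5.72, 6.5 and 6.23 TPM. It fell by 22.1%, but the ranges touched, since S. epidermidis replicate 1 lay below anti-CTLA-4 replicate 4. Its limma adjusted p was 0.0443, and of the 9 leave-one-out fits only those lacking anti-CTLA-4 replicate 4 or S. epidermidis replicate 1 kept the call, with the others at up to 0.108 in limma.

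Sc5d, the sterol desaturase (mm10 chr9:42254177-42264300, minus strand), had 22.4, 23.8, 25.9 and 21.8 TPM in the anti-CTLA-4 libraries, against 36.2, 29.4, 30.3, 36.3 and 32.7 TPM in the S. epidermidis libraries. Here anti-CTLA-4 replicates 1 and 4 were lowest, and the groups did not overlap. Sc5d fell by 28.8%, the largest percent change among the 13 called genes, with a log2 fold change of -0.47 ± 0.083 (SE; limma adjusted p = 0.00836). Dhcr7, which completes cholesterol in this branch, had 17.4, 18.7, 18.6 and 18.9 TPM, against 25.6, 25.5, 22.4, 26.8 and 23.3 TPM. Its 4 anti-CTLA-4 libraries lay close together, and it fell by 25.5% (log2 fold change -0.40 ± 0.064 SE, limma adjusted p = 0.00569).

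Among the enzymes not called, Hsd17b7, a ketosteroid reductase of the same demethylation complex, averaged 24.0 ± 0.960 TPM in the anti-CTLA-4 libraries and 28.5 ± 2.70 TPM in the S. epidermidis libraries (SD, n = 4 and n = 5). Its groups met without overlapping, at 24.813 and 24.820 TPM, with a limma adjusted p of 0.0751, and it was called lower without S. epidermidis replicate 1 (limma adjusted p = 0.0390). The reductase Tm7sf2 had 7.32 ± 0.910 and 8.92 ± 0.736 TPM (limma adjusted p = 0.0923). Ebp, the sterol isomerase, had 23.4, 22.8, 26.4 and 26.8 TPM, against 28.6, 25.2, 27.8, 21.4 and 24.8 TPM. Its groups overlapped throughout, and its fold change of -0.036 ± 0.091 on the log2 scale lay within its SE of 0. Whether Ebp or Ggps1 differs from the enzymes that fell was not tested.

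**Figure D3:**
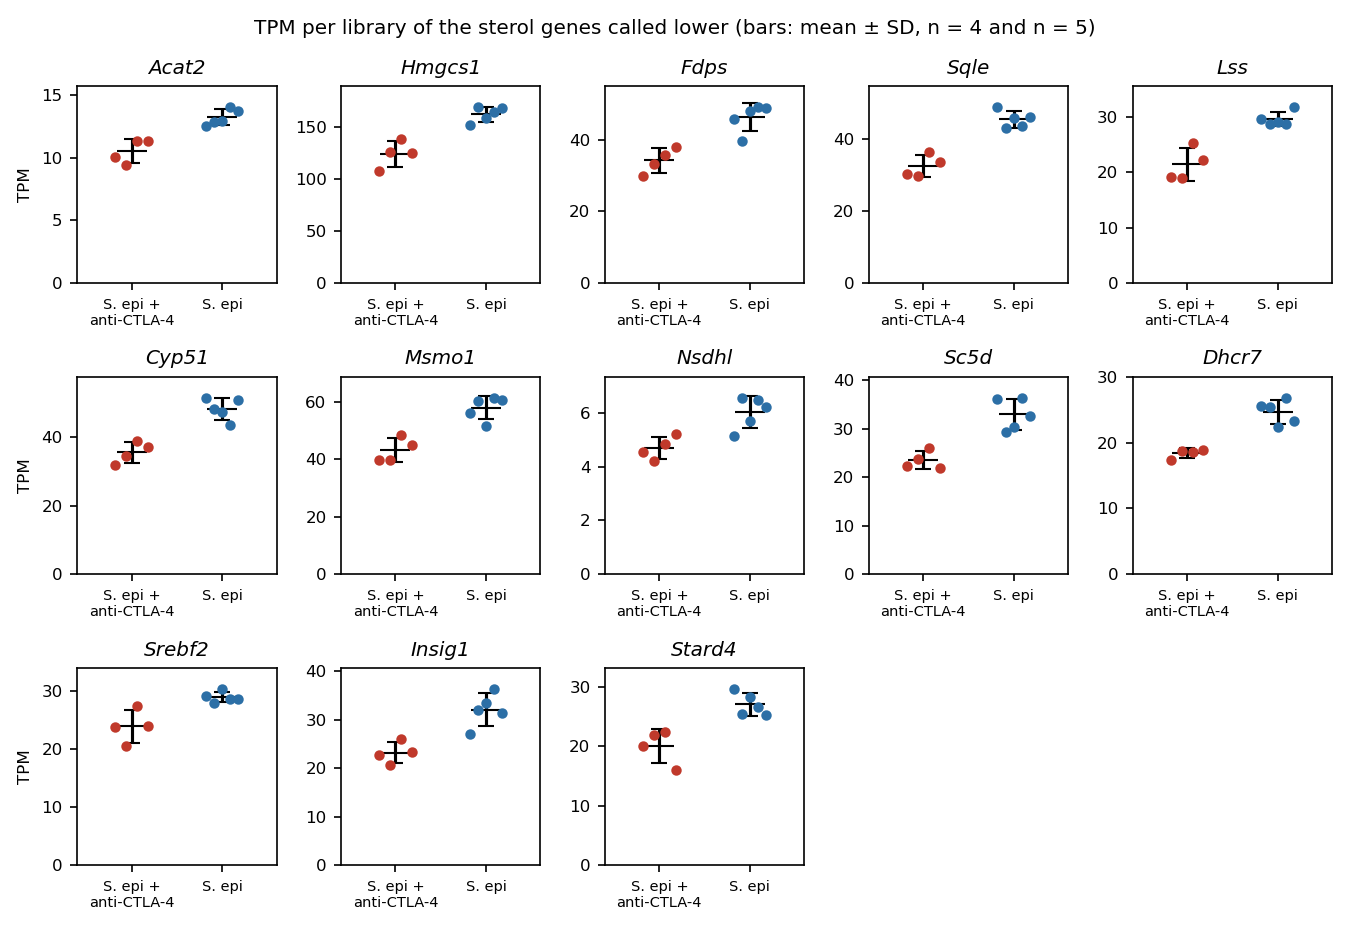
TPM in each library for the 13 genes called lower, 1 panel each with its axis from 0, with the 4 anti-CTLA-4 libraries on the left (red) and the 5 S. epidermidis libraries on the right (blue); bars are mean ± SD. In every panel but that of Nsdhl all red points lie below all blue points.

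The SREBP factors and their regulators were lower in part, with 2 of 5 called. Srebf2, the factor that mainly drives sterol genes (mm10 chr15:82147269-82204960, plus strand), had 23.7, 20.6, 27.4 and 23.9 TPM in the anti-CTLA-4 libraries, against 29.1, 27.9, 30.3, 28.6 and 28.6 TPM in the S. epidermidis libraries. Replicate 3 of the anti-CTLA-4 libraries came close to the S. epidermidis range, and the other 3 lay lower. Srebf2 fell by 17.4% (log2 fold change -0.27 ± 0.076 SE, limma adjusted p = 0.0477), and of the 9 leave-one-out fits only that lacking anti-CTLA-4 replicate 3 kept the call, with the others at up to 0.0991 in limma. Srebf1, whose products also drive fatty acid synthesis, was the second most abundant of the 32 genes by mean TPM. It had 58.8, 64.98, 72.3 and 61.2 TPM, against 72.6, 81.1, 74.4, 102 and 73.4 TPM, without overlap but with S. epidermidis replicate 4 far above the rest. Srebf1 was not called (log2 fold change -0.32 ± 0.11, limma adjusted p = 0.0974), although scaling to a common median or without the 50 most abundant genes called it lower (limma adjusted p of 0.0250 and 0.0357). Quantile normalization and scaling without ribosomal RNA entries did not (limma adjusted p of 0.0555 and 0.107). Scap, the escort protein, averaged 17.5 ± 1.32 and 18.95 ± 0.816 TPM (limma adjusted p = 0.286).

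Insig1, itself a target of SREBP that retains SCAP in the endoplasmic reticulum (mm10 chr5:28071412-28078662, plus strand), had 22.8, 20.7, 26.03 and 23.3 TPM in the anti-CTLA-4 libraries, against 27.1, 32.1, 33.5, 36.3 and 31.3 TPM in the S. epidermidis libraries. The groups did not overlap. Insig1 fell by 27.7% (log2 fold change -0.45 ± 0.091 SE, limma adjusted p = 0.0148). Its relative Insig2, which has the same retaining role, had 16.2, 16.8, 17.9 and 15.5 TPM, against 19.8, 19.05, 17.2, 22.4 and 17.5 TPM, with overlap and no call (log2 fold change -0.19, limma adjusted p = 0.174). Of 14 tested genes for cutting SREBP and for degrading its regulators, limma called 0, with 1 higher and 0 lower at an unadjusted p under 0.05 and a median log2 fold change of -0.035. Such a count is near the 4.48% called lower and 7.16% called higher over all tested genes.

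Of 2 genes, a sterol carrier and a control of uptake, only the carrier fell, beside 4.48% of all tested genes called lower. Stard4, a carrier that moves sterols between membranes and a known SREBP target, had 20.02, 21.99, 22.4 and 16.02 TPM in the anti-CTLA-4 libraries, against 29.7, 25.5, 28.3, 26.6 and 25.3 TPM in the S. epidermidis libraries. Anti-CTLA-4 replicate 4 was the lowest, and the groups did not overlap. Stard4 fell by 25.7% (log2 fold change -0.42 ± 0.099 SE, limma adjusted p = 0.0252), and leaving out anti-CTLA-4 replicate 1, S. epidermidis replicate 1 or S. epidermidis replicate 4 ended the call, at up to 0.0584 in limma. Mylip, a ubiquitin ligase under LXR control that marks lipoprotein receptors for degradation, had 25.5, 32.8, 35.2 and 26.8 TPM, against 29.9, 30.7, 30.9, 34.7 and 26.5 TPM. Its groups overlapped throughout and it was not called (limma adjusted p = 0.898).

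None of the 4 LXR and efflux genes was called by limma, and 0 had an unadjusted p under 0.05. Beside 4.48% of all tested genes called lower and 7.16% higher, 0 calls among 4 genes says little about them. Nr1h2, which encodes the widely expressed LXR beta, had 55.6, 52.4, 65.2 and 58.3 TPM in the anti-CTLA-4 libraries, against 61.4, 56.7, 54.4, 60.9 and 55.99 TPM in the S. epidermidis libraries. Its mean was 57.9 ± 5.46 TPM with the antibody and 57.9 ± 3.12 TPM without (SD; n = 4 and 5). Nr1h3, which encodes the LXR alpha of macrophages and liver, was far lower, with 3.79, 3.59, 3.54 and 2.79 TPM, against 2.48, 2.99, 2.902, 3.19 and 3.06 TPM. Of its 4 anti-CTLA-4 libraries, 3 lay above all S. epidermidis libraries, and replicate 4 lay inside their range (log2 fold change 0.17 ± 0.09, limma adjusted p = 0.263).

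The exporters Abca1 and Abcg1 differed more among the anti-CTLA-4 libraries than between the groups. Abca1, which loads cholesterol onto apolipoproteins, had 27.97, 33.4, 37.1 and 24.1 TPM in the anti-CTLA-4 libraries, against 31.0, 33.4, 27.98, 37.8 and 28.7 TPM in the S. epidermidis libraries (limma adjusted p = 0.809). Abcg1, which passes sterols to lipoprotein particles, had 12.97, 17.5, 18.4 and 11.3 TPM, against 14.5, 12.1, 12.6, 13.8 and 11.8 TPM (limma adjusted p = 0.444). In both genes anti-CTLA-4 replicates 2 and 3 were the highest of their group and replicate 4 the lowest.

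Ch25h and Soat1 act on cholesterol that has been made or taken up. Ch25h, an enzyme induced by interferon in macrophages that makes an oxysterol known to hold SREBP in the endoplasmic reticulum, had 3.77, 2.51, 2.18 and 10.1 TPM in the anti-CTLA-4 libraries, against 2.39, 1.28, 0.922, 3.48 and 2.59 TPM in the S. epidermidis libraries. Anti-CTLA-4 replicate 4 was the highest of all, replicate 1 lay just above the S. epidermidis range, and replicates 2 and 3 lay inside it. Ch25h had the largest positive fold change of the 32 genes and the largest error (0.72 ± 0.38 SE on the log2 scale, limma adjusted p = 0.268), and was not called. Without anti-CTLA-4 replicate 4 its log2 fold change was 0.33. Soat1, which esterifies cholesterol for storage, had 26.8, 27.1, 33.4 and 28.1 TPM, against 35.1, 35.8, 30.02, 35.3 and 34.3 TPM, with overlap through anti-CTLA-4 replicate 3 and S. epidermidis replicate 3. It was not called (log2 fold change -0.24, limma adjusted p = 0.0906) but passed as lower once anti-CTLA-4 replicate 3 was left out (adjusted p = 0.0305 in limma).

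**Figure D4:**
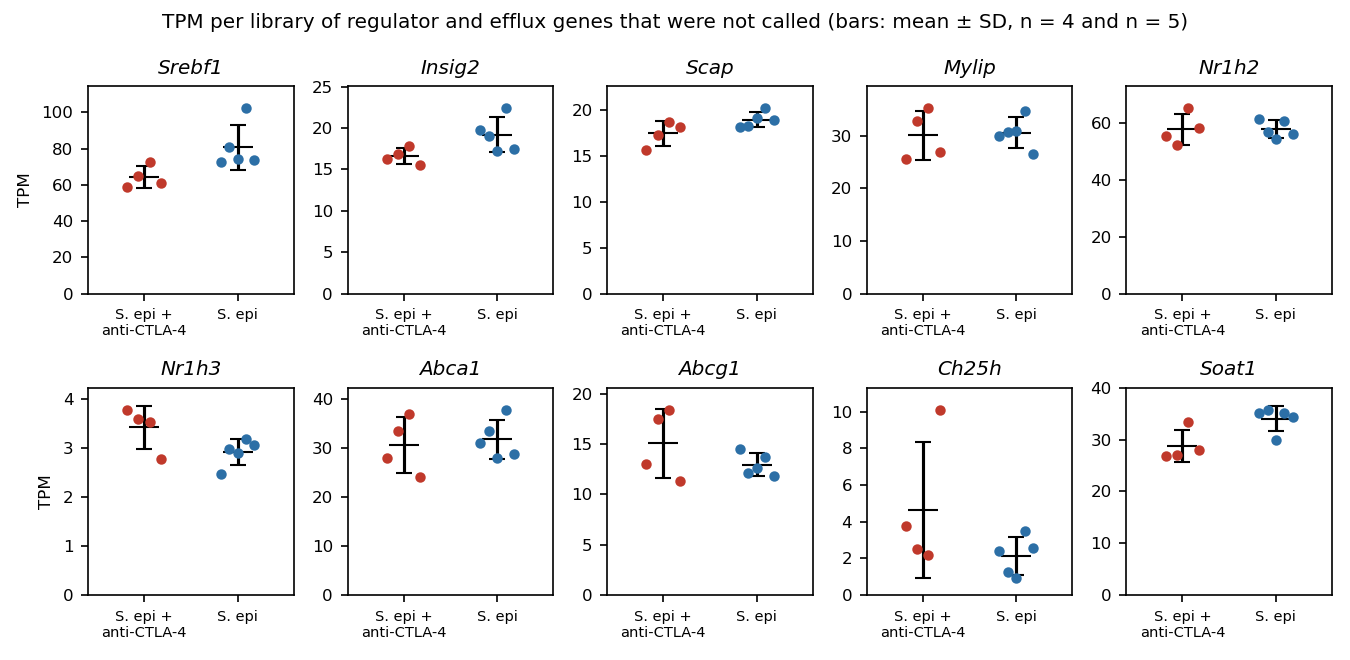
TPM in each library for 10 regulator, efflux, oxysterol and ester genes that were not called, 1 panel each with its axis from 0, with the anti-CTLA-4 libraries on the left (red) and the S. epidermidis libraries on the right (blue); bars are mean ± SD. Red and blue points overlap in every panel except that of Srebf1, and 1 red point of Ch25h stands at 10.1 TPM.

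Beyond the 32 genes, 22 tested genes of sterol trafficking and storage gave 4 rises and 1 fall. Over all tested genes 7.16% were called higher and 4.48% lower, so the single fall is near that share. Lipa, the lysosomal lipase that frees cholesterol from esters, averaged 6.195 ± 0.361 TPM in the anti-CTLA-4 libraries and 4.49 ± 0.271 TPM in the S. epidermidis libraries (SD, n = 4 and n = 5). It rose with a log2 fold change of 0.39 ± 0.064 (SE; limma adjusted p = 0.00601). Npc2, which hands sterols out of the lysosome, rose to 39.5 ± 4.14 TPM, against 26.7 ± 2.49 TPM (limma adjusted p = 0.00632). Cyp7b1, which hydroxylates oxysterols, rose to 8.301 ± 1.72 TPM, against 4.86 ± 1.10 TPM (limma adjusted p = 0.0283). The other calls, named after their values were seen, were a rise of Gramd1a and a fall of Gramd1c, relatives that carry sterols from the plasma membrane. The list had a median log2 fold change of 0.13.

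Of 20 genes listed for fatty acid and triglyceride synthesis, 10 fell and 0 rose, with a median log2 fold change of -0.32. SREBP also drives fatty acid synthesis, and its part in these falls was not tested. The shares over all tested genes were 4.48% lower and 7.16% higher. Scd2, a desaturase, had 67.1 ± 9.64 TPM in the anti-CTLA-4 libraries and 104 ± 9.52 TPM in the S. epidermidis libraries (SD, n = 4 and n = 5; limma adjusted p = 0.00611). Acly, which supplies acetyl-CoA to both pathways, had 24.6 ± 1.64 and 30.8 ± 0.948 TPM (limma adjusted p = 0.00916). Dgat2, which makes triglycerides, had 26.99 ± 1.42 and 37.2 ± 3.12 TPM (limma adjusted p = 0.00569).

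Beside the sterol genes, immune markers rose, and suprabasal keratinocyte and hair follicle markers fell in part. The counts below stand beside 7.16% of all tested genes called higher and 4.48% called lower. Of 16 macrophage and monocyte markers 12 rose and 0 fell, and their summed level was 1413 to 1912 TPM in the anti-CTLA-4 libraries against 961 to 1220.5 TPM in the S. epidermidis libraries. Of 13 T cell markers 12 rose and 0 fell, with summed levels of 196 to 242 TPM against 115 to 146 TPM. Itgam, an integrin of myeloid cells, had 9.42 to 12.7 TPM in the anti-CTLA-4 libraries against 2.76 to 4.14 TPM in the S. epidermidis libraries, and Cd2, an adhesion receptor of T cells, had 7.83 to 10.3 TPM against 1.35 to 3.402 TPM. Among 8 suprabasal keratinocyte markers 4 fell (Calm5, Dsg1a, Sbsn and Dsc1) and Krt1 rose, with summed levels of 15842 to 19837 TPM against 20333 to 25780.4 TPM. In 3 further lists a single gene fell, beside the 4.48% of all tested genes called lower. Col17a1 was the only call of 8 basal keratinocyte markers, whose summed level was 7196 to 8481 TPM in the anti-CTLA-4 libraries against 6747 to 8068 TPM in the S. epidermidis libraries. The mean of their log2(TPM + 1) values went the other way, at 8.00 ± 0.086 against 8.15 ± 0.070 (SD, n = 4 and n = 5). Their median log2 fold change was -0.19, with 3 lower and 0 higher at an unadjusted limma p under 0.05. Fa2h was the only call of 12 sebaceous gland markers, with summed levels of 241 to 300.4 TPM against 276 to 355 TPM. At an unadjusted limma p under 0.05, 5 of these 12 were lower and 0 higher, with a median log2 fold change of -0.20. Pparg was the only call of 11 adipocyte markers, with 233 to 320.4 TPM against 265 to 350.2 TPM. By unadjusted limma p under 0.05, 2 of these 11 were lower and 0 higher, with a median log2 fold change of -0.19. Of 15 muscle markers, 14 were tested and 2 fell (Actn3 and Pvalb). Among these 14, 6 were lower and 0 higher at an unadjusted limma p under 0.05, with a median log2 fold change of -0.38. Of 21 hair follicle markers, 7 were tested and 4 fell (Hoxc13, Krt73, Msx2 and Foxn1), with summed levels of 25.8 to 35.6 TPM against 40.2 to 64.9 TPM. Of 9 fibroblast markers limma called 0, with 1 higher at an unadjusted p under 0.05. No marker in these lists was at 0 in all 9 libraries. Sbsn, Dsc1 and Foxn1 were named after their values were seen. The part of the immune markers in the result was not tested.

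With the mean of a marker list as a covariate, few sterol genes were called. The muscle list left Cyp51, the sebaceous gland list left Sqle, and the hair follicle and basal keratinocyte lists left 0, with 18, 13, 13 and 11 of the 32 genes at an unadjusted p under 0.05 in that order. Over all tested genes these fits, in the same order, called 3, 42, 10 and 1 genes lower, against 704 without a covariate. All 13 sterol genes kept a negative fold change in these 4 fits. Their median log2 fold change was -0.46 with muscle, -0.34 with sebaceous gland, -0.38 with hair follicle and -0.28 with basal keratinocyte, against -0.42 without a covariate. Their median SE was between 0.096 and 0.12, against 0.080 without. Between 37.3% and 56.8% of the variance of these list means lay between the groups, so group and tissue makeup cannot be told apart in these fits.

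**Figure D5:**
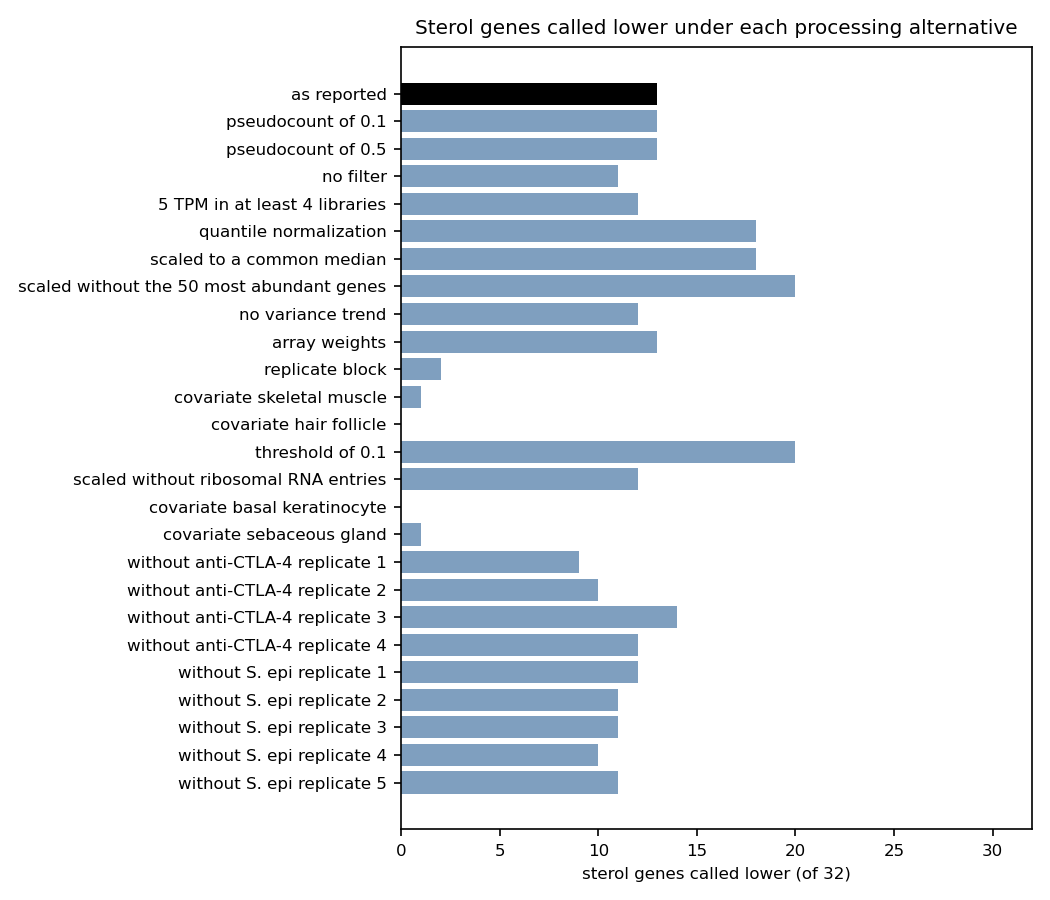
Number of the 32 sterol genes called lower in limma as reported (black, 13) and under each alternative (blue); the axis ends at 32. The other scalings call 12 to 20, leaving out 1 library 9 to 14, and the marker covariates 0 or 1.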

How the data were processed

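Total RNA of micro-dissected ear skin was sequenced on an Illumina NextSeq, per the labels' protocols. STAR, HOMER and DESeq2 were used on mm10, per the submitters' processing notes; the sources used here do not give their roles, their versions or the annotation. The authors deposited TPM per gene and library. TPM is relative to the library's own total, so abundant transcripts can shift every other value, and it keeps no read counts, so no count test was run. Groups and replicate numbers came from the sample titles, and 4 anti-CTLA-4 libraries were compared with 5 S. epidermidis libraries.

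The 15704 of 25124 genes that reached 1 TPM in 4 or more libraries were fitted as log2(TPM + 1) by limma 3.58.1 (R 4.3.3), with variances that follow the mean and no covariate. P-values were two-sided and Benjamini-Hochberg adjusted over all genes tested, with a threshold of 0.05. A pseudocount of 1 understates the change of low genes. The fit was tested on simulated data. All 32 genes are named; of each other list, at most the 3 called genes with the smallest p are, and exceptions are stated. The members and lists were chosen with earlier results of these data known. An exact permutation test planned for members below the filter was not needed, as 0 were. The alternatives were other pseudocounts, filters, scalings and variance settings, weights per library, a block for the replicate number, marker covariates and leaving out each library. The scaling without ribosomal RNA entries and the basal keratinocyte and sebaceous gland covariates were chosen after seeing the data. Promoter windows are RefSeq's on GRCm38.p6, the same assembly as mm10. Motifs and figures were made with Python 3.11.15, pandas 2.3.3 and matplotlib 3.10.9.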

Additional observations from a re-analysis of the deposited data

Results flagged for a closer look

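In 64 groups of values (32 genes in 2 groups), 3 had a library whose gap to its nearest neighbour was a large part of the group's range by Dixon's test, where chance flags about 1 in 20 groups. S. epidermidis replicate 4 held 18.7 TPM of Ggps1, where the other 4 held 15.8 to 16.6 TPM. The same library held 102 TPM of Srebf1, where the others held 72.6 to 81.1 TPM. S. epidermidis replicate 3 held 30.0 TPM of Soat1, where the others held 34.3 to 35.8 TPM. Without S. epidermidis replicate 4 the log2 fold change of Srebf1 was -0.23 and that of Ggps1 0.024, and without replicate 3 that of Soat1 was -0.28, and none of these 3 genes was called in those fits (limma adjusted p of 0.110 for Srebf1, 0.886 for Ggps1 and 0.0511 for Soat1).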

How the results depend on the processing

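The count of 13 genes called lower was 11 to 13 with other pseudocounts, filters, variance settings and array weights, 18 with quantile normalization or a common median, 12 without ribosomal RNA entries, and 20 without the 50 most abundant genes or at a threshold of 0.1. Leaving out 1 library gave 9 to 14 lower, and the count of genes called higher was 0 under every alternative run. With a marker list as covariate, 1 (muscle), 0 (hair follicle), 0 (basal keratinocyte) and 1 (sebaceous gland) were called lower. The cause of these changes was not tested beyond the values given in the report. With the replicate number as a block, 2 genes were called lower (Sqle and Dhcr7). Over all tested genes that fit called 88 lower (0.56%), against 704 (4.48%) without a block. The numbers are not stated to pair libraries, and deviations of same-numbered libraries correlated at between -0.093 and 0.018 over genes, so this block has no basis in the design; anti-CTLA-4 libraries correlated best with another number in all 4 cases.

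The 13 called genes stayed negative in all 25 alternatives. Signs turned in some fits for 6 genes that were never called. Ggps1 reached 0.013 without ribosomal RNA, 0.20 with the basal keratinocyte and 0.090 with the sebaceous covariate, and -0.070 to 0.026 when 1 library was left out. Mylip reached 0.00083, 0.18 and 0.074 in those fits and -0.11 to 0.044 with 1 library left out. Nr1h2 reached 0.0028 with array weights, 0.027 with the hair follicle covariate, 0.027 without ribosomal RNA, 0.16 and 0.056 with the basal keratinocyte and sebaceous covariates, and -0.061 to 0.042 with 1 library left out. Abca1 reached 0.032, 0.17 and 0.11 with the hair follicle, basal keratinocyte and sebaceous covariates and -0.16 to 0.044 with 1 library left out. Ebp spanned -0.096 to 0.0041 with 1 library left out, and Scap was 0.0022 with the basal keratinocyte covariate. The unknown depth limits what can be said of the lowest genes, Ch25h and Nr1h3.
Over all tested genes 1124 were called higher and 704 lower, against 1314 and 1429 with quantile normalization, 1302 and 1313 at a common median, and 1205 and 1306 without the 50 most abundant genes. The 704 lower calls became 337, 406 and 377 without anti-CTLA-4 replicates 1, 2 and 4 and 414, 352 and 397 without S. epidermidis replicates 1, 2 and 4, and the 1124 higher calls became 706 without anti-CTLA-4 replicate 3. The alternatives planned for genes below the expression filter were not run, since 0 of the 32 were below it.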

Other observations

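Ratios of genes within a library do not depend on the TPM total. The ratio of Sqle to Ggps1, the squalene epoxidase over the enzyme of the prenylation branch, was 2.00, 1.99, 1.97 and 1.93 in anti-CTLA-4 replicates 1 to 4, against 3.08, 2.60, 2.80, 2.33 and 2.92 in S. epidermidis replicates 1 to 5. The ratio of Hmgcs1 to Ggps1 was 7.12 to 8.39, against 8.73 to 10.6. The ratio of Insig1 to Insig2 was 1.23 to 1.503, against 1.37 to 1.95, and overlapped through S. epidermidis replicate 1. The ratio of Srebf1 to Srebf2 was 2.48 to 3.16, against 2.46 to 3.57, and overlapped. These pairs were chosen after the values were seen, so no test is given, and a ratio shows unequal levels without saying which gene changed.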
